A study of Homo sapiens with 12 samples.

Results

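The common effect of a double knockout of KDM5A and KDM5B was measured across parental and cisplatin-resistant SKOV-3 cells, by testing 6 knockout libraries against 6 control libraries with the cell background as a covariate. All 12 libraries of the series entered the test. Of 17947 genes tested, 12 were called and had the same fitted sign in both backgrounds. For DSCAM, MAF and HEPH among these, the sign in parental cells rests on 1 or 2 reads. HEPH also lost its call with a replicate block in the parental libraries, whose numbers were taken to pair from the data. SKOV-3 is an established line of human epithelial ovarian adenocarcinoma, and SKOV-3 CDDP is its derivative resistant to cisplatin, a platinum drug that crosslinks DNA. The 4 groups of 3 libraries were wild-type SKOV-3 (called parental here), SKOV-3 with the double knockout, wild-type SKOV-3 CDDP (resistant), and SKOV-3 CDDP with the double knockout. The labels name no drug in the medium of any group, and they do not say whether a knockout group is a single clone or a pool. Nor do they give the origin of the 3 libraries of each group, which may be repeats of a single culture, and p-values then reflect technical spread alone.

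KDM5A and KDM5B are demethylases that remove methyl groups from lysine 4 of histone H3, a mark that is concentrated at active promoters and is densest over promoters rich in CG dinucleotides. They are studied as repressors of transcription, and in cancer cell cultures KDM5A is known for its link to a slow-cycling, drug-tolerant state. The study's title concerns cisplatin resistance mediated by KDM5, and the pooled comparison asks which transcripts moved with the knockout whether or not the cells were resistant.

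The KDM5A transcript (chromosome 12, 280129 to 389454 on GRCh38) was the only gene called lower. It stood at 30.9, 41.5 and 39.4 CPM (counts scaled to a common effective library size with TMM factors) in the parental libraries and at 22.5, 20.9 and 15.6 once knocked out. In resistant cells it stood at 39.9, 39.0 and 33.4 CPM without the knockout and at 17.6, 14.8 and 12.0 CPM with it. Every knockout library lay below every control of its own background, and KDM5A transcript remained in all 6. The pooled log2 fold change was -1.13 ± 0.18 (SE; 6 against 6), with an adjusted p of 0.0336 in edgeR's quasi-likelihood test with Benjamini-Hochberg adjustment over all genes tested. All adjusted p-values given here come from that test unless another is named. With knockout labels permuted within backgrounds, KDM5A had a two-sided exact p of 0.005, the smallest that the 400 arrangements allow. KDM5A kept its call in 3 of 12 fits that each left out a library (those without parental 1, parental knockout 1 or parental knockout 2), with adjusted p between 0.0332 and 0.141.

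KDM5B, the other targeted gene, did not separate the groups at the transcript level (pooled log2 fold change -0.27 ± 0.34, exact permutation p = 0.445), and neither did KDM5C, a paralog that was not targeted (0.09 ± 0.17, exact permutation p = 0.465). A transcript level does not measure the protein or the edit. Among 24 genes of a list of KDM5 family and H3K4-modifying enzymes, KDM5A was the only one called.

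Totals ran from 15659352 to 19706754 counts per library. Of 10 ovarian epithelial carcinoma markers, 10, 10, 8 and 9 had a mean of at least 1 CPM in parental, parental knockout, resistant and resistant knockout cells. Endothelial and erythroid markers had no member at that level in any group. Of 6 neuron markers, 2, 3, 3 and 3 reached it in the same order of groups, with TUBB3 the highest in every library. Of 9 fibroblast markers, 1 reached it in parental, 3 in parental knockout, 5 in resistant and 6 in resistant knockout cells. COL1A1 was the highest of them in resistant and resistant knockout cells. Counts at 1 CPM do not show levels, and carcinoma markers differed between backgrounds in either direction. KRT19 stood at 62.8 to 258 CPM in parental and at 0.420 to 3.11 CPM in resistant libraries. KRT8 stood at 144 to 280 CPM in parental and at 1075 to 1774 CPM in resistant libraries.

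The pooled test called 13 genes higher in the knockout libraries (0.0724% of those tested) and 1 lower (0.00557%). Of these, 11 had a fitted value above 0 in both backgrounds (0.0613%) and 1, KDM5A, below 0 in both (0.00557%). The other 2 calls, FGB and SPANXB1, had at most 1 read in all 6 parental-background libraries together and say nothing about a shared direction. Among the 11, DSCAM and MAF had 1 read there and HEPH 2, so a shared direction is not shown for them either. A total of 1337 genes had an unadjusted p under 0.05, 697 higher and 640 lower. The median log2 fold change over all genes tested was 0.04 in the pooled fit, 0.02 in parental and 0.04 in resistant cells.

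Of the 14 calls, 8 were also made in resistant cells alone. Tested in a fit with a mean per group, the knockout called no gene in parental cells alone (0%) with edgeR, where 539 genes had an unadjusted p under 0.05 and where DESeq2 called 11 and limma-voom 1. It called 38 genes in resistant cells alone (0.212%). None of the 14 was called in parental cells alone. The test of the difference between the knockout effects called 5 genes (0.0279%), and none of the 14 was among them. The call in resistant cells and its lack in parental cells is therefore no shown difference for those 8. For FGB, DSCAM and SPANXB1 among them, at most 1 read in the parental background left that test unable to decide. The SE of their difference was 3.41, 29.6 and 15816. CST6, also among them, had a difference of 1.58 ± 0.59, with an unadjusted p of 0.0190 in that test.

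**Figure D1:**
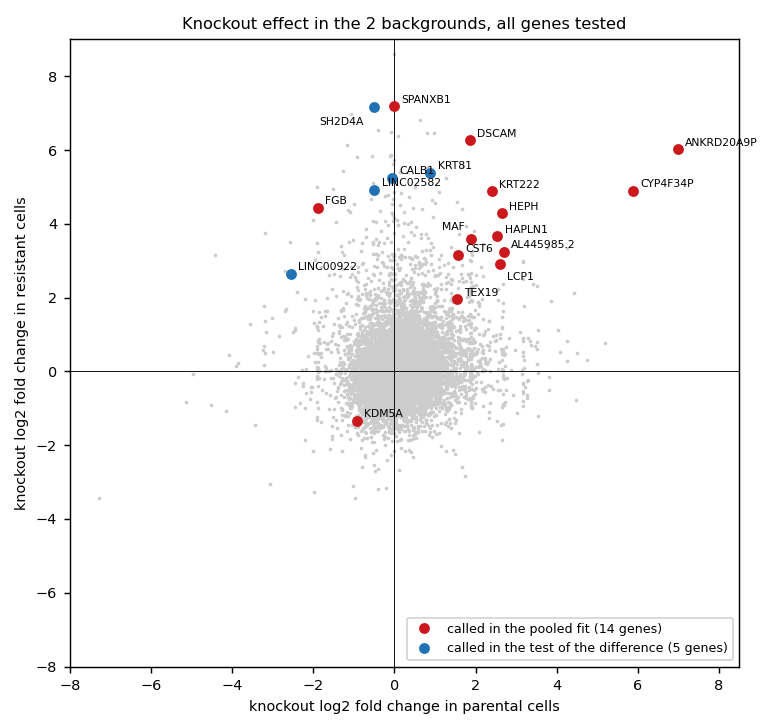
Fitted knockout log2 fold change in parental cells (x axis) and in resistant cells (y axis) for all 17947 genes tested. Each grey dot is a gene, the 14 red points are the genes called in the pooled fit and the 5 blue points those called in the test of the difference. The red points lie in the upper right part, apart from KDM5A at the lower left and FGB and SPANXB1, which have almost no parental reads. DSCAM, MAF and HEPH also have almost no parental reads. Fitted values of genes with 0 to 3 reads in a group depend on the prior count.

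Across genes the effects in the backgrounds were weakly related. As a description over genes, which are not independent replicates, the fold changes correlated at r = 0.131 over all genes tested and at r = 0.246 over the 10838 genes with a mean of at least 5 CPM in each background. The sign was shared by 56.9% and 59.8% of those genes. The background contrasts share no library.

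CST6 (chromosome 11, 66011841 to 66013505) encodes cystatin E/M, a secreted inhibitor of lysosomal cysteine proteases. It stood at 0.299, 0.192 and 0.259 CPM in parental and at 0.852, 0.774 and 0.632 CPM in parental knockout libraries, which rests on 13 and 40 reads. In resistant cells it stood at 23.5, 41.2 and 22.7 CPM without the knockout and at 213, 372 and 187 CPM with it. The groups did not overlap in either background, and the level of CST6 in resistant controls lay far above that of parental knockout cells. The pooled log2 fold change was 2.71 ± 0.33 (adjusted p = 0.00908), made of 1.56 ± 0.46 in parental and 3.14 ± 0.33 in resistant cells. CST6 kept its call in 11 of 12 leave-one-out fits and missed it without resistant library 3, at an adjusted p of 0.0501.

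HAPLN1 (chromosome 5, 83637805 to 83721613) encodes the link protein that fastens proteoglycans to hyaluronan in the extracellular matrix. It stood at 0.239, 0.256 and 0.362 CPM in parental and at 0.601, 2.52 and 2.07 CPM in parental knockout libraries. In resistant cells its level was 5.603, 10.8 and 4.68 CPM, and with the knockout 96.97, 131 and 39.4 CPM. No knockout library overlapped a control of its background. The pooled log2 fold change of HAPLN1 was 3.29 ± 0.44 (adjusted p = 0.00918), with 2.54 ± 0.66 in parental and 3.67 ± 0.55 in resistant cells. The call of HAPLN1 was lost without resistant library 1 or 3, where its adjusted p reached 0.0613.

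LCP1 (chromosome 13, 46125920 to 46211871) encodes L-plastin, an actin-bundling protein of blood cells that many carcinoma lines also make. Its level was 0.119, 0.320 and 0.207 CPM in parental, 1.503, 2.00 and 0.517 CPM in parental knockout, 2.86, 4.08 and 4.36 CPM in resistant and 19.6, 19.3 and 46.3 CPM in resistant knockout libraries. The groups did not overlap, and the fold changes in the backgrounds were close, at 2.60 ± 0.61 and 2.91 ± 0.51. The pooled value for LCP1 was 2.80 ± 0.38 (adjusted p = 0.00918). LCP1 lost its call when any of resistant libraries 1, 2 and 3 was left out, with an adjusted p of up to 0.0613.

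Since LCP1 is a gene of blood cells, leukocyte markers were read beside it. Of 10 such markers, CD68, which carcinoma cells also express, was the only one at a mean of at least 1 CPM in any group, and PTPRC, the common leukocyte antigen, stayed at or under 0.301 CPM in every library. The summed level of the list was 31.9 to 95.6 CPM in parental, 24.3 to 77.2 in parental knockout, 11.4 to 15.3 in resistant and 15.2 to 22.3 in resistant knockout libraries.

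KRT222 (chromosome 17, 40654665 to 40665181) encodes a keratin-related protein within the type I keratin cluster. It had 1 read over the 3 parental libraries and 7 over the parental knockout libraries, a ratio of 6.84 with a 95% exact counting interval of 0.879 to 308. In resistant cells KRT222 stood at 0, 0.0609 and 0.315 CPM without the knockout and at 4.55, 3.38 and 4.20 CPM with it. Its groups did not overlap, and its pooled log2 fold change was 4.46 ± 0.71 (adjusted p = 0.0337). It kept its call in 2 of 12 leave-one-out fits, without parental library 2 or parental knockout library 2, with adjusted p up to 0.232 in the others. Counting intervals cover counting error only.

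TEX19 (chromosome 17, 82359247 to 82363776), a gene of germ cells and placenta known for restraining retrotransposons, rose in the pooled test from a level that was measurable in every group. It stood at 2.03, 1.60 and 3.21 CPM in parental and at 7.42, 5.94 and 6.72 CPM in parental knockout libraries. In resistant cells TEX19 stood at 3.15, 6.34 and 4.52 CPM without the knockout and at 24.3, 19.2 and 10.7 CPM with it. Its backgrounds gave close values, 1.55 ± 0.41 and 1.95 ± 0.40, and a pooled log2 fold change of 1.75 ± 0.28 (adjusted p = 0.0341). TEX19 kept its call in 3 of 12 leave-one-out fits (without parental library 3, parental knockout library 2 or resistant knockout library 3), with adjusted p from 0.0253 to 0.209.

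The smallest p-value belonged to a pseudogene. ANKRD20A9P (chromosome 13, 18816718 to 18871967), an unprocessed pseudogene of an ankyrin repeat family with many near-identical copies, had 0 reads over the 3 parental libraries and 46 over the 3 parental knockout libraries, which stood at 0.601, 1.23 and 0.862 CPM. In the parental background it was at least 14.99-fold higher in the knockout, taking 3 counts over the group as the floor. In resistant cells ANKRD20A9P had 1 read without the knockout and 92 with it, at 1.68, 1.61 and 1.79 CPM, a ratio of 88.8 with a 95% exact counting interval of 15.6 to 3546. Its pooled adjusted p was 0.000996, and it was called in 12 of 12 leave-one-out fits. It reached the level of the expression filter (0.570 CPM, 10 counts in a library of median size) in knockout libraries only, so it entered the test through the groups where it is high.

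CYP4F34P (chromosome 13, 18741730 to 18742718), an unprocessed pseudogene of a cytochrome P450 family, is its closest tested neighbour on that chromosome. It had 1 read in parental and 81 in parental knockout libraries, at 1.10, 0.774 and 2.7004 CPM, a ratio of 79.2 with an exact counting interval of 13.8 to 3165. In resistant cells CYP4F34P had 3 and 104 reads, the latter at 1.58, 3.16 and 0.926 CPM, a ratio of 33.5 with an interval of 11.1 to 165. The adjusted p of CYP4F34P was 0.00908, and of the leave-one-out fits the one without resistant library 3 lost the call, at 0.0501. CYP4F34P, too, reached the filter level in knockout libraries only.

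Since both pseudogenes passed the filter through knockout libraries, their high level there was a condition of being tested. GGT4P, the nearest tested gene on one side, had a mean of 1.47 CPM in parental, 2.89 in parental knockout, 0 in resistant and 0.626 ± 0.451 (SD, n = 3) in resistant knockout cells, with a pooled log2 fold change of 2.00 ± 0.89 (adjusted p = 0.661). MPHOSPH8, the nearest on the other side, had one of 0.16 ± 0.15 (adjusted p = 0.869). Of the other tested copies named as ANKRD20A or CYP4F family members, none was called by edgeR on all 12 libraries. ANKRD20A19P, farther along the same chromosome, came nearest with 2.95 ± 0.61 (adjusted p = 0.186 in edgeR and 0.000157 in DESeq2, with 1 leave-one-out fit that called it, at 0.0455), while ANKRD20A7P on chromosome 9 had -0.26 ± 0.53. Reads may be shared between such copies, since it is not stated how reads with several possible origins were counted.

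AL445985.2 is a gene that release 29 of the GENCODE annotation does not hold. Its log2 fold change was 2.69 ± 0.49 in parental and 3.25 ± 0.64 in resistant cells. The filter level was reached in 1 parental and 0 resistant control libraries, against 3 parental and 2 resistant knockout libraries. This gene, too, entered the test mainly through libraries where it is high. It stood at 0.239, 0.448 and 0.673 CPM in parental and at 3.76, 2.32 and 2.87 CPM in parental knockout libraries. In resistant cells AL445985.2 had 3 reads without the knockout and 33 with it, a ratio of 10.6 with an exact counting interval of 3.33 to 54.1. Pooled, the log2 fold change was 2.87 ± 0.38 (adjusted p = 0.00908). The call was lost without resistant library 1 or 3, with an adjusted p of up to 0.0501.

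A further 3 genes were called and had the same fitted sign, yet their sign in parental cells rests on 1 or 2 reads. DSCAM (chromosome 21, 40010999 to 40847139), a cell adhesion molecule of neurons, had 0 reads in parental, 1 in parental knockout, 1 in resistant and 110 in resistant knockout libraries, the last at 2.33, 1.44 and 2.29 CPM. In resistant cells the ratio for DSCAM was 106, with an exact counting interval of 18.7 to 4232, and the pooled adjusted p was 0.00908. DSCAM kept its call in 8 of 12 leave-one-out fits and lost it without parental knockout library 1 or any of the resistant libraries 1, 2 and 3, with an adjusted p of up to 0.189.

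MAF (chromosome 16, 79585843 to 79600714), a bZIP transcription factor, had 0 and 1 reads in the parental background. In resistant cells it stood at 0.292, 0.426 and 0.263 CPM without the knockout and at 5.25, 4.49 and 2.16 CPM with it, with no overlap. The pooled log2 fold change of MAF was 3.50 ± 0.53 (adjusted p = 0.0283), and 6 of 12 leave-one-out fits called it, with adjusted p up to 0.234. The call was lost without parental knockout library 3, any resistant library, or resistant knockout library 1 or 2.

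HEPH (chromosome X, 66162549 to 66268867) encodes hephaestin, a copper-dependent oxidase that passes iron out of intestinal cells. It had 0 and 2 reads in the parental background, 0.700, 0.366 and 0.158 CPM in resistant and 14.8, 6.98 and 2.41 CPM in resistant knockout libraries. Pooled, it gave 4.22 ± 0.67 on the log2 scale (adjusted p = 0.0337). With the replicate block in the parental libraries, whose numbers were taken to pair, HEPH no longer passed (adjusted p = 0.0606). A replicate block within both backgrounds called HEPH (adjusted p = 0.000329). HEPH was called in 2 of 12 leave-one-out fits, without parental knockout library 2 or resistant knockout library 3, with adjusted p up to 0.234.

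KRT222, DSCAM, MAF and SPANXB1 reached the level of the expression filter in resistant knockout libraries only. They entered the test through the group where they are high, so that group had to differ from the others. HEPH and FGB reached that level in 1 and 2 resistant controls and in 3 resistant knockout libraries each, so their high level there also helped to bring them in. SPANXB1, a sperm protein gene of a family with near-identical copies on chromosome X, had no read in 6 parental-background libraries, 1 in resistant and 201 in resistant knockout libraries (adjusted p = 0.0460 in edgeR, 0.597 in DESeq2). FGB, the beta chain of fibrinogen, stood at 0.467, 4.69 and 1.89 CPM in resistant and at 51.1, 71.1 and 30.8 CPM in resistant knockout libraries (pooled adjusted p = 0.0460, lost in every one of the 12 leave-one-out fits, with an adjusted p of up to 0.388). In bulk RNA, more cells with a transcript and more transcript per cell cannot be told apart.

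**Figure D2:**
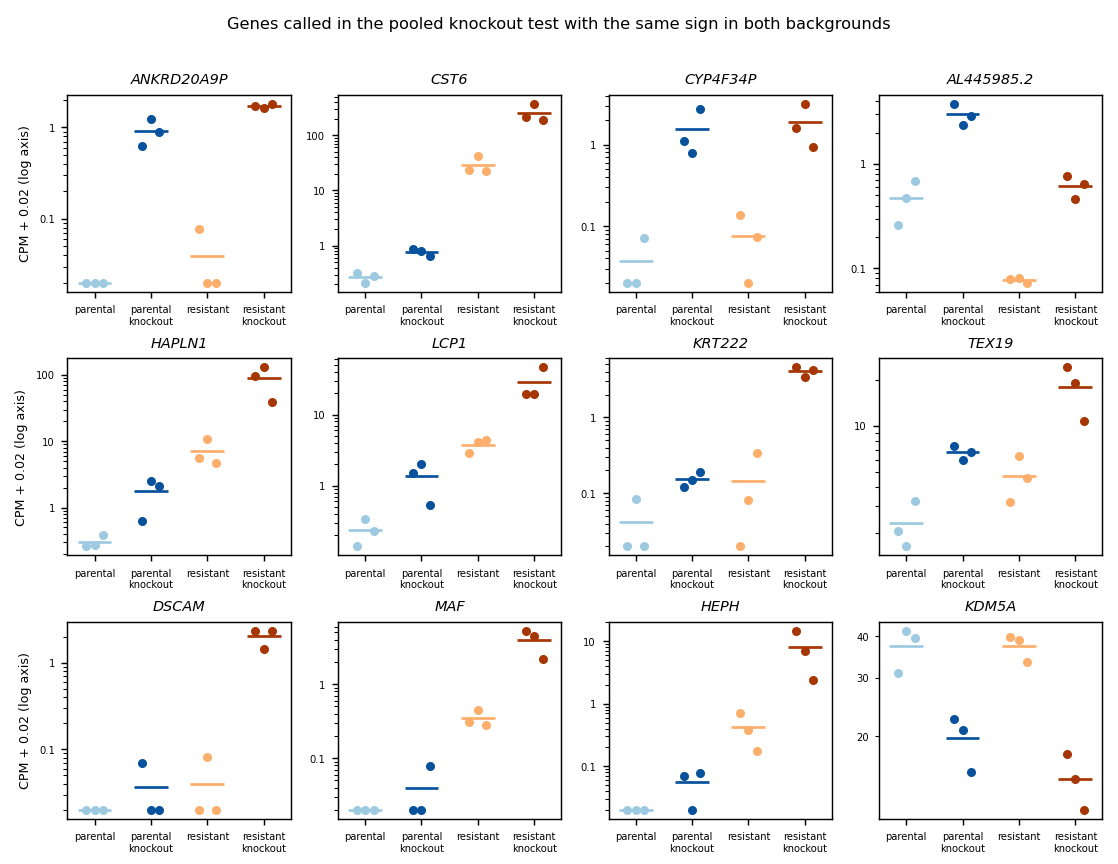
CPM in each library (points) and the group mean (lines) for the 12 genes called in the pooled test with the same sign in both backgrounds, on log axes after adding 0.02 so that libraries at 0 can be drawn. The first 8 panels hold genes whose knockout libraries lie above every control in both backgrounds. DSCAM, MAF and HEPH sit near 0 in all parental-background libraries, and KDM5A is lower in all 6 knockout libraries.

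The sequence before the start of a gene bears on the comparison because the mark that KDM5 enzymes remove is densest over promoters rich in CG. RefSeq promoters (GRCh38.p14) matched 6 of the 12 genes. They are shown for DSCAM, MAF and HEPH, whose 250 bases before the RefSeq start hold no annotated exon of GENCODE release 29, with each CG in capitals. The windows lie at chr21:40847159-40847408 (minus strand), chr16:79600738-79600987 (minus strand) and chrX:66163997-66164246 (plus strand), each written 5′ to 3′ on the strand of its gene.
DSCAM: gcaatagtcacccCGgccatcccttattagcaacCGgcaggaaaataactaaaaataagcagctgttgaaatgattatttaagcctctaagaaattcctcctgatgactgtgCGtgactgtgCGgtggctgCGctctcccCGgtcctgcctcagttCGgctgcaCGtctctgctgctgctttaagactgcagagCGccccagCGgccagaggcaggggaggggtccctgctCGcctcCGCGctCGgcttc
MAF: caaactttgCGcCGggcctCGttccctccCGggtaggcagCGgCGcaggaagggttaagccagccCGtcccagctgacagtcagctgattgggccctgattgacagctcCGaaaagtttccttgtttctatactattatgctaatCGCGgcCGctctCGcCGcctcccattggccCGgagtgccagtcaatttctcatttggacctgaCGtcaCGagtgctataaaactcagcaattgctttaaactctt
HEPH: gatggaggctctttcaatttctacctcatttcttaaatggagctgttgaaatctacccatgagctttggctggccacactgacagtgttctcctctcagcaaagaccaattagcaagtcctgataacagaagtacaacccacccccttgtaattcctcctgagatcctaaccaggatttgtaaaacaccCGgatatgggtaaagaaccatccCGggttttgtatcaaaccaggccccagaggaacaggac

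These windows held 14, 16 and 2 CG dinucleotides, against a median of 11 and quartiles of 3 and 23 over 27305 RefSeq promoters of the same length. HAPLN1 held 5, LCP1 2 and KDM5A 18. The count of CG thus varied among the matched genes. The windows of HEPH, LCP1, HAPLN1 and KDM5A lie at RefSeq starts inside the gene as GENCODE annotates it. The letters CCGCCC, a motif bound by the DNA-binding ARID domain of KDM5A, were searched on both strands, where the reverse complement is GGGCGG. The same letters lie inside the GC box bound by SP1. They occurred in 2 of the 6 matched windows, those of KDM5A and LCP1, and in 42.3% of all promoters. A match of letters is not a binding site.

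Another reading of a shared direction, without a test, asks for every knockout library beyond every control of its own background, in both backgrounds. It was met by 76 genes on the higher side (0.423%) and by 103 on the lower side (0.574%), and 9 of the 14 called genes were among them. The rule adjusts nothing over genes. Of the 400 arrangements of knockout labels within backgrounds, 1 on each side meets it, so genes without an effect can meet it too. The higher genes had a median absolute log2 fold change of 1.03 and 63.2% were protein-coding. The lower genes had a median of 0.58, and 96.1% were protein-coding, against 0.22 and 77.6% over all genes tested. A larger median than that of all genes follows from the rule itself, which asks for separation. Median levels were 5.40 CPM for the higher genes, 24.4 CPM for the lower genes and 17.4 CPM over all genes tested. At least a 2-fold pooled change was present in 40 of the 76 and in 9 of the 103. The lower genes thus had the smaller median difference, and 1 of them was called against 8 of the higher genes.

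Genes closest to a call on the lower side, chosen among protein-coding genes of this pattern by the smallest p, missed the threshold in edgeR. CDCP1, a transmembrane glycoprotein that docks SRC family kinases, stood at 184, 205 and 176 CPM in parental, 84.3, 121 and 88.4 CPM in parental knockout, 200, 102 and 184 CPM in resistant and 58.1, 71.1 and 80.8 CPM in resistant knockout libraries. The log2 fold change of CDCP1 was -0.94 ± 0.28 in parental and -1.21 ± 0.28 in resistant cells, and -1.08 ± 0.19 pooled, at an adjusted p of 0.0782. DNAJC3, a co-chaperone of the endoplasmic reticulum that restrains the kinase PERK, had a pooled log2 fold change of -0.99 ± 0.21 (adjusted p = 0.196).

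OCLN, which encodes occludin of tight junctions, stood at 19.2, 27.8 and 25.6 CPM in parental, 9.27, 17.1 and 11.5 CPM in parental knockout, 149, 53.8 and 62.6 CPM in resistant and 35.3, 35.4 and 36.5 CPM in resistant knockout libraries. Its pooled value was -1.13 ± 0.26 (adjusted p = 0.243). The kinase gene CAMK2B had -0.90 ± 0.20 (0.243), the fatty acid elongase gene ELOVL7 had -1.04 ± 0.24 (0.243), and SEC22C, of transport between endoplasmic reticulum and Golgi, had -0.73 ± 0.17 (0.245). PTPN14, a tyrosine phosphatase that binds the coactivator YAP, had -0.68 ± 0.16 (0.283). None of these 7 genes passed edgeR's test in a leave-one-out fit, while DESeq2 called all 7, with adjusted p from 0.000243 for CDCP1 to 0.0248 for PTPN14. DESeq2 read the same counts that chose these genes, so its calls are no separate evidence.

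On the higher side DUSP2, a nuclear phosphatase that switches off MAP kinases, came closest. It stood at 0.657, 0.448 and 0.259 CPM in parental, 2.054, 1.81 and 0.919 CPM in parental knockout, 0.700, 1.52 and 1.79 CPM in resistant and 5.00, 7.59 and 12.7 CPM in resistant knockout libraries. Its pooled log2 fold change was 2.27 ± 0.40 at an adjusted p of 0.0624. With a replicate block in the parental libraries, whose numbers were taken to pair, the adjusted p of DUSP2 was 0.0349, and DESeq2 gave 1.06e-05.

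The membrane protein gene TMEM98 had 1.81 ± 0.40 (adjusted p = 0.230), IGFN1, of skeletal muscle, 1.74 ± 0.40 (0.243), and LEF1, a transcription factor of the WNT pathway, 1.91 ± 0.44 (0.245). IDH3B, a subunit of the mitochondrial isocitrate dehydrogenase, stood at 82.4, 74.3 and 65.4 CPM in parental, 163, 134 and 114 CPM in parental knockout, 54.2, 73.7 and 69.1 CPM in resistant and 84.0, 81.1 and 126 CPM in resistant knockout libraries. Its value was 0.72 ± 0.18 (adjusted p = 0.283). IDH3B had the smallest pooled difference of these 5 genes, at 0.89 ± 0.25 in parental and 0.56 ± 0.25 in resistant cells. DESeq2 called these 4 genes, with adjusted p of 0.00138 for TMEM98, 0.00572 for IGFN1, 0.0129 for LEF1 and 0.0219 for IDH3B.

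**Figure D3:**
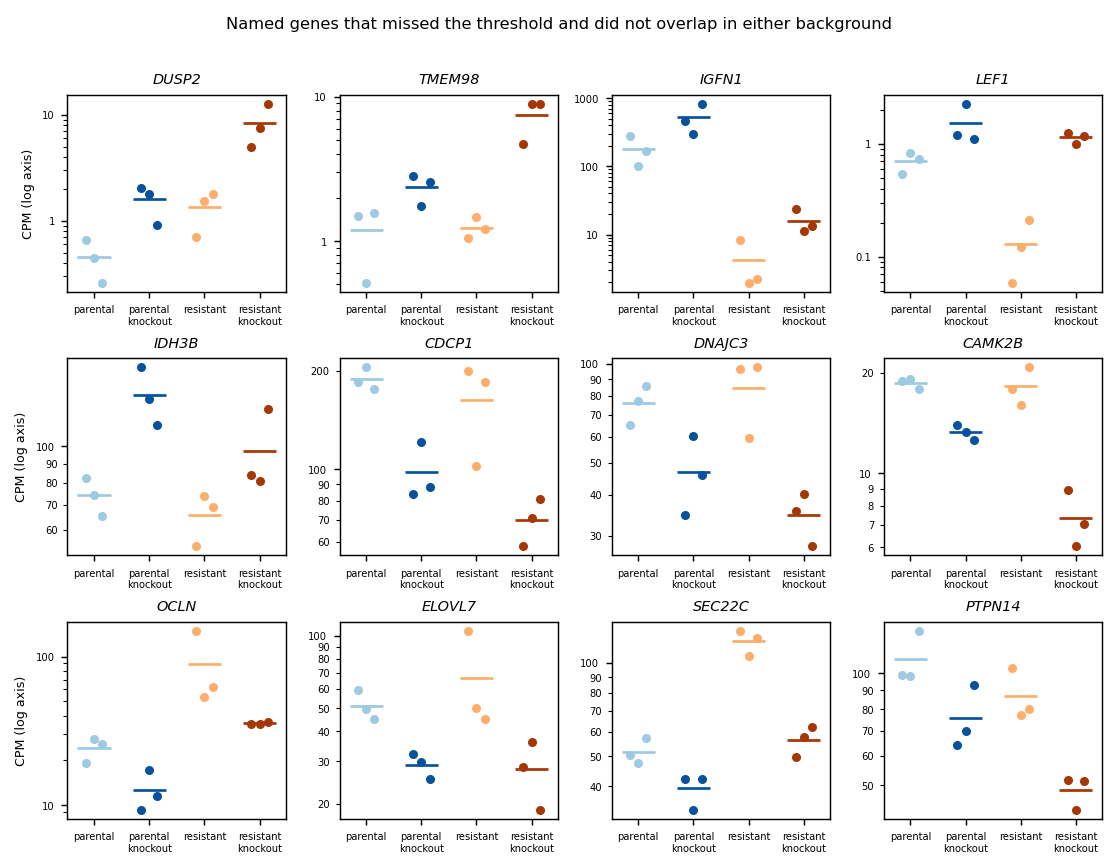
CPM in each library (points) and the group mean (lines), on log axes, for the 12 named protein-coding genes that missed the threshold in edgeR and whose knockout libraries did not overlap their controls in either background. DUSP2, TMEM98, IGFN1, LEF1 and IDH3B lie higher and CDCP1, DNAJC3, CAMK2B, OCLN, ELOVL7, SEC22C and PTPN14 lower in knockout libraries.

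A replicate block in the parental libraries called 14 genes higher (0.078%) and 2 lower (0.0111%), and 12 of the 14 genes called without it remained. HEPH and FGB (adjusted p = 0.0865) no longer passed. DUSP2, COL1A1, DMKN and MMP10 passed edgeR's test with this block and not without a block. COL1A1, the alpha-1 chain of type I collagen, stood at 939, 729 and 345 CPM in resistant and at 4082, 4372 and 2499 CPM in resistant knockout libraries. In the parental background COL1A1 ranged from 0.119 to 2.28 CPM without and from 0.651 to 8.22 CPM with the knockout, and there the groups overlapped.

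Of 26 gene lists of pathways with 767 tested members, 2 held a gene called by edgeR, KDM5A and FGB. At an unadjusted p under 0.05 in edgeR there were 50 members higher and 28 lower, against 697 and 640 of all 17947 genes tested. DESeq2 called 10 members higher and 5 lower, against 99 and 22 of all genes. The member counts given below for each list are to be read beside these. The lists are described by counts and medians of log2 fold changes, with 0.04 over all genes tested and 55.2% of all genes above 0, and no list was tested as a set.

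Genes of inflammation had medians above that in both backgrounds. Of 26 tested NF-kB and cytokine genes, 24 were above 0 and 17 were so in both backgrounds, with medians of 0.59 pooled, 0.58 in parental and 0.65 in resistant cells. Of these, edgeR called 0 (4 higher and 1 lower at an unadjusted p under 0.05) and DESeq2 1, which was higher. TNFAIP3, a feedback inhibitor of NF-kB, had 0.99 ± 0.42 (adjusted p = 0.653), and CCL2, a chemokine for monocytes, 3.28 ± 0.84 (adjusted p = 0.324). CCL5, another chemokine, was at -3.06 ± 1.05 (adjusted p = 0.551). Of 19 acute-phase and complement genes, 14 were above 0 and 1, FGB, was called, with medians of 1.29 pooled, 0.49 in parental and 2.16 in resistant cells. SAA1, which encodes serum amyloid A and has the near-identical copy SAA2, had 2.30 ± 0.62 (adjusted p = 0.370), with 2.146 ± 0.76 and 2.84 ± 1.24 in the backgrounds.

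Interferon-stimulated genes lay on the other side. Of 41 tested, 32 were below 0, 23 were so in both backgrounds, and edgeR and DESeq2 called 0 (4 lower and 0 higher at an unadjusted p under 0.05 in edgeR), with medians of -0.27 pooled, -0.42 in parental and -0.22 in resistant cells. OAS2, a sensor of double-stranded RNA, had -1.58 ± 0.61 (adjusted p = 0.614). Of 20 genes of MHC class I and antigen processing 11 were above 0, with a median of 0.03.

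Chaperone lists were read by compartment. Of 32 genes of the unfolded protein and integrated stress response, 28 were below 0, 21 in both backgrounds, with medians of -0.49 pooled, -0.18 in parental and -0.74 in resistant cells. Of these stress response genes edgeR called 0 (9 lower and 0 higher at an unadjusted p under 0.05) and DESeq2 2, both lower. SEL1L, of endoplasmic reticulum degradation, had -1.07 ± 0.27 (adjusted p = 0.324), and HYOU1, a chaperone of that compartment, -0.91 ± 0.27 (0.468). Of 20 cytosolic heat shock chaperone genes, 18 were above 0, 16 in both backgrounds, and edgeR and DESeq2 called 0 (0 also at an unadjusted p under 0.05 in edgeR), with medians of 0.25 pooled, 0.22 in parental and 0.30 in resistant cells. HSPB1, a small heat shock protein, had 1.16 ± 0.54 (adjusted p = 0.672).

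Nuclear genes of oxidative phosphorylation had medians that were small and close in both backgrounds, at 0.15 pooled, 0.14 in parental and 0.16 in resistant cells, with 42 of 46 above 0, 33 above 0 in both. Of these, edgeR and DESeq2 called 0, with 2 higher at an unadjusted p under 0.05 in edgeR. UQCRB, a subunit of complex III, had 0.54 ± 0.19 (adjusted p = 0.574), and its libraries did not overlap in either background. The 13 mitochondrially encoded genes had medians of opposite sign, 0.80 in parental and -0.17 in resistant cells, so their pooled median of 0.35 describes neither. The share of counts on those genes was 4.18% to 6.07% in parental, 5.21% to 12.9% in parental knockout, 6.39% to 7.44% in resistant and 5.08% to 7.67% in resistant knockout libraries. Of 68 cytosolic ribosomal protein genes 66 were above 0 in the pooled fit and 45 in both backgrounds, with medians of 0.22 pooled, 0.05 in parental and 0.37 in resistant cells, and edgeR and DESeq2 called 0, with 0 at an unadjusted p under 0.05.

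For other lists the median was farther from 0 in resistant than in parental cells, a difference that was not tested. Of 25 cholesterol biosynthesis genes 24 were below 0 pooled, with -0.56 pooled, -0.01 in parental and -1.10 in resistant cells. Of 18 ovarian carcinoma lineage genes 17 were above 0, with 0.61 pooled, 0.30 in parental and 1.05 in resistant cells. SOX17, a transcription factor of that lineage, had 0.60 ± 0.20 (adjusted p = 0.549), at 0.45 ± 0.29 and 0.76 ± 0.30. None of the genes of these lists was called by edgeR or DESeq2. At an unadjusted p under 0.05 in edgeR there were 7 lineage genes, all higher, and 0 cholesterol genes.

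Of 44 tested mesenchymal and matrix genes 28 were above 0 and 16 were so in both backgrounds, with medians of 0.30 pooled, 0.24 in parental and 0.29 in resistant cells. Of these matrix genes edgeR called 0 (12 higher and 3 lower at an unadjusted p under 0.05), DESeq2 2 higher, limma-voom 1 higher, and edgeR with the replicate block in parental libraries 1, COL1A1. POSTN, a matrix protein of fibroblasts, had 1 read in parental libraries, where it was at 0.1002, 0.129 and 0.115 CPM with the knockout. In resistant cells POSTN stood at 5.19, 16.2 and 6.20 CPM without the knockout and at 42.9, 88.8 and 32.7 CPM with it (pooled log2 fold change 2.54 ± 0.45, adjusted p = 0.0723). The summed level of the 9 fibroblast markers, among them collagens of this list, was 1.97 to 8.80 CPM in parental and 2.56 to 28.7 CPM in parental knockout libraries. It was 350.0 to 960.4 CPM in resistant and 2527 to 4470 CPM in resistant knockout libraries. There COL1A1 alone stood at 345 to 939 and at 2499 to 4372 CPM, so the sum mostly followed that 1 gene. In resistant cells PDGFRA and THY1 had no higher mean with the knockout, while PDGFRB, LUM, DCN, FAP, COL1A2 and COL3A1 had. No marker was at 0 in all libraries of a group, and the part of this marker list in the matrix values was not tested.

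Lists tied to growth and to cisplatin held no gene called by edgeR. Of 42 mitosis genes 23 were above 0, with a median of 0.01 that turned to -0.03 when libraries were scaled by size alone. Of 47 DNA replication genes 38 were above 0 (median 0.19), and of 43 genes that repair platinum lesions 21 were (median -0.02). Of 22 cisplatin transport and metallothionein genes edgeR called 0 (2 higher and 3 lower at an unadjusted p under 0.05) and DESeq2 1 lower, with a median of -0.08. The DESeq2 call was SLC47A1, an efflux transporter of organic cations, at -1.97 ± 0.45 (adjusted p = 0.243 in edgeR and 0.00255 in DESeq2). A leave-one-out fit of edgeR also called SLC47A1, at 0.0204. It stood at 30.1, 16.1 and 18.7 CPM in resistant and at 7.47, 6.42 and 4.01 CPM in resistant knockout libraries, while in the parental background its groups overlapped.

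**Figure D4:**
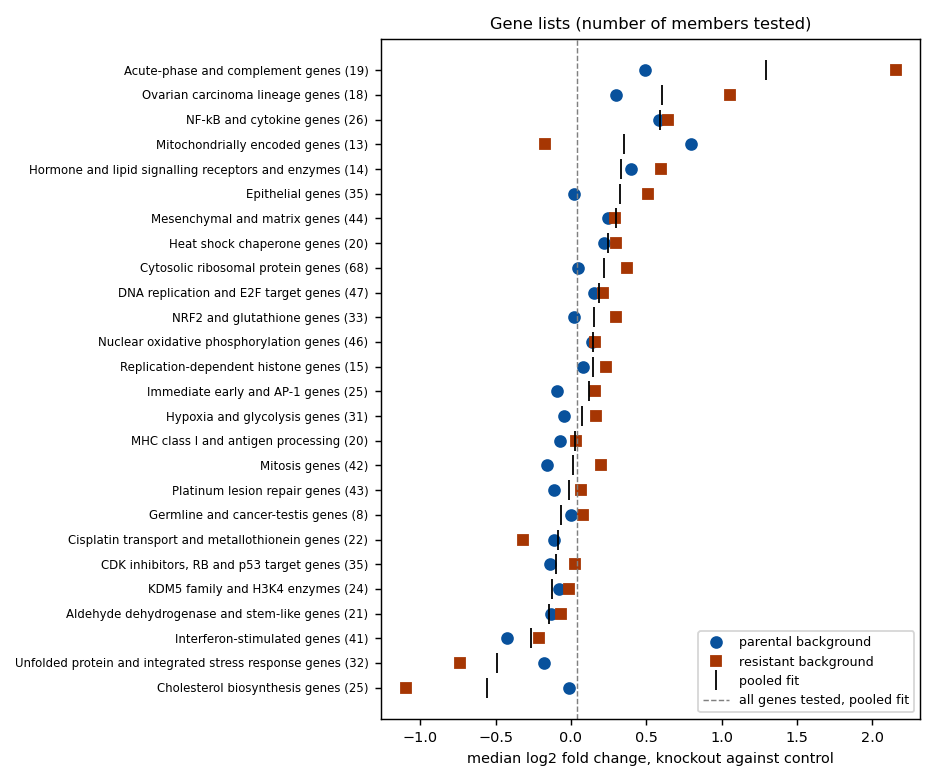
Median log2 fold change of knockout against control for each of 26 gene lists, with the number of members tested in brackets. Circles give the parental background, squares the resistant background, and bars the pooled fit, and the dashed line is the median of all genes tested (0.04). NF-kB genes and heat shock chaperones have close values in both backgrounds, while acute-phase and cholesterol genes lie far apart.

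Of 8 tested members of the list of germline and cancer-testis genes, 3 were above and 5 below 0, with a median of -0.07, and edgeR called 0 (2 higher and 2 lower at an unadjusted p under 0.05) and DESeq2 1, which was higher. TEX19 and SPANXB1 led to a reading of germline gene families by their symbols, chosen after the values were seen and given as a description. Of 36 tested members 21 were above 0, and the called members were the 2 that prompted the reading. On chromosome X, 9 of 12 were above 0 and the median pooled log2 fold change was 1.73. None of those 12 had a mean of 0.2 CPM in parental knockout cells, so their values come from resistant cells. SPANXB1, SAGE1, CT45A1 and MAGEB2 reached the expression filter level in 0, 1, 2 and 2 resistant controls and in 3 resistant knockout libraries each. Their high level with the knockout thus helped to bring them into the test. The median also includes SPANXB1, which prompted the reading, so it is no result about genes of this kind. CT45A1, of a family with near-identical copies, had 0 reads in all parental-background libraries and stood at 0.175, 0.609 and 0.894 CPM in resistant and 6.43, 6.59 and 10.2 CPM in resistant knockout libraries (adjusted p = 0.168). MAGEA12, CSAG1 and MAGEA3 went the other way, at -1.45, -1.48 and -1.19 (adjusted p = 0.497, 0.550 and 0.622). At an unadjusted p under 0.05 in edgeR there were 10 of the 12 members on chromosome X, 7 of them higher. Off chromosome X the median of 24 members was 0.00, and TEX19, which prompted the reading, was the only one called. These 24 were matched by symbol alone and include genes at high levels in every group. Among them were TEX264 (group means of 110 to 213 CPM) and TEX261 (87.5 to 115 CPM). Their median therefore does not describe genes restricted to germ cells.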

How the data were processed

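RNA was measured in 12 libraries. Deposited values are raw read counts per gene. The submitters' processing notes list the build GRCh38 and the tools featureCounts 2.0.1, STAR 2.7.10a and Trim Galore 0.6.10, and per the labels' protocols libraries were poly(A)-selected with a strand-keeping kit. The counting's annotation, its strand setting and its treatment of multiply mapped reads are not stated, so overlapping, antisense and near-identical genes may share reads. A misspelling of the resistant line in 2 column names (libraries 2 and 3 of its wild type), by a letter, was resolved through the column names in the sample descriptions. Names and positions came from GENCODE release 29, which holds 57380 of 59498 identifiers.

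From the counts, 17947 genes passed filterByExpr by group in edgeR 4.0.16 (R 4.3.3) and were scaled with TMM factors. The pooled test was edgeR's quasi-likelihood test (robust) of the knockout with background as a covariate, Benjamini-Hochberg adjusted at 0.05. A fit with a mean per group gave the effect per background and the difference. The additive fit counts disagreement between backgrounds as spread. The SE is the absolute log2 fold change over the square root of F. Same way means called, with the same sign in both backgrounds. The script was tested on simulated counts. Replicates were taken as separate libraries. Lowest depth was 15659352 counts, and genes at a few reads have the least precision. Reads carry no molecular identifiers, so intervals cover counting error only.

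Genes were named by rule: KDM5A, KDM5B and KDM5C; called protein-coding genes of the same way that do not overlap in either background, with at least 1 CPM in the higher state, filled to 8 per direction by p; called list members; and called noncoding genes. Other genes named were chosen after their values were seen. Members and lists were chosen with earlier results of these data known. Same-numbered parental libraries with and without the knockout deviated together from their group means (correlations 0.66, 0.77 and 0.78), so these numbers were taken to pair them. In resistant cells the correlations were 0.57, -0.19 and 0.64, and the numbers were not taken to pair. Alternatives were DESeq2 1.42.0, limma-voom (limma 3.58.1), other scalings and filters, blocks and leaving out libraries.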

Additional observations from a re-analysis of the deposited data

Results flagged for a closer look

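The knockout effect differed between backgrounds for 5 genes by the test of the difference itself (edgeR, adjusted over all genes), and a pooled value summarises none of them well. Differences are log2 values, resistant minus parental. For CALB1, a calcium-binding protein gene, the difference was 5.31 (adjusted p = 0.00473), with a pooled log2 fold change of 2.03. For LINC02582 it was 5.41 (0.00494), with 1.63 pooled. For LINC00922 it was 5.20 (0.00613), made of -2.55 in parental and 2.64 in resistant cells, so the pooled value was 0.21. For KRT81, a hair keratin gene, it was 4.49 (0.0381), with 4.00 pooled. For SH2D4A, at 0 reads in resistant controls, it was at least 4.63 (0.0381), with 0.82 pooled. None of the 5 was called in the pooled edgeR test, and DESeq2 called KRT81 (adjusted p = 0.000103).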

How the results depend on the processing

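Counts are given as genes higher and lower in the pooled test, then higher and lower the same way in both backgrounds. DESeq2 called 99 and 22, then 85 and 22, with 67 in the test of the difference and 11 in parental and 249 in resistant cells alone. A filter of 1 count called 259 and 114, then 207 and 110, with 161, 83 and 451. Without both parental libraries numbered 3 no gene was called lower (0 and 0), and 10 were called in the difference and 66 in resistant cells. Library size alone gave 2 lower in both counts and 11 in the difference. The mean of the knockout contrasts gave 2 lower in both counts. limma-voom called 1 in parental cells. An unadjusted p under 0.05 in each background left 7 of the higher genes.

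The replicate block in the parental libraries, which was chosen after seeing the data, called 2 lower in both counts, 28 in the difference and 141 in resistant cells. A replicate block within both backgrounds called 180 and 104, then 159 and 103, with 274, 154 and 939, and all 14 genes remained called. It also called 22 list members higher and 12 lower, among them 8 matrix genes, 5 acute-phase genes and 2 NF-kB genes higher, and 5 stress response genes, 2 cisplatin transport genes and 1 mitosis gene lower. A replicate block with numbers shared by both backgrounds called 21 higher, 18 of them the same way, with 18 in the difference and 1 in parental cells.

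Leaving out 1 library at a time gave 1 to 14 higher and 0 to 2 lower, 1 to 13 and 0 to 2 the same way, 3 to 8 in the difference and 4 to 50 in resistant cells. Without resistant library 3 the pooled test called 1 gene, ANKRD20A9P, without resistant library 1 it called 3 and without resistant library 2 it called 6. The pooled log2 fold change of LINC00922 reversed without resistant library 1, 2 or 3, at -0.47, -0.42 and -0.42, and was 0.87 without parental knockout library 3. The cause of these changes was not tested. Scaling with median-of-ratios factors, and requiring 1 CPM in 3 libraries, kept every one of these counts within 1.5 times. Genes at a few reads in parental cells limit any statement on a shared direction.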
